A study of Mus musculus with 9 samples.

Results

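The genes described here are 33 markers of the brain cells that surround microglia, measured in sorted microglia: 10 neuron, 9 astrocyte, 10 oligodendrocyte lineage, and 4 endothelial and mural genes. They were chosen by name from markers in common use for those cells, and each was read from its brightest probe set with 1 gene symbol. All 33 were found, each with exactly 1 such probe set, among 22180 genes. The question was whether their signal differed between microglia of genotypes with and without deletion of Hdac1 and Hdac2. Such a difference could come from RNA of other cells carried through the sort or from transcription of other lineages' genes in the microglia.

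Microglia were sorted from perfused brains of female C57Bl/6 mice 24 to 28 weeks old and hybridised to 9 one-colour arrays, 3 per genotype. The wild type group is labelled Wildtype, with no floxed allele or Cre named. FAD mice were FAD Hdac1/2fl/fl, with familial Alzheimer's disease transgenes and both deacetylase genes floxed but no Cre named. FAD DKO mice were FAD Hdac1/2fl/fl Cx3cr1CreERT2: a tamoxifen-activated Cre driven by Cx3cr1, a gene of microglia and other tissue macrophages, deletes both genes. All 3 groups, controls included, received 8 mg of tamoxifen at 6 weeks of age. FAD therefore differs from wild type in the transgenes and the floxed alleles together, and FAD DKO differs from FAD in the Cre allele as well as the deletion. The labels do not say that each array came from a separate animal, so the p-values measure the spread between these samples, which may be technical.

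HDAC1 and HDAC2 remove acetyl groups from histones and form the catalytic core of corepressor complexes such as CoREST, NuRD and Sin3. In cells that are not neurons, the repressor REST recruits such complexes to neuronal genes and helps to keep them silent. In glial progenitors the same 2 enzymes take part in oligodendrocyte formation, and vascular cells lie next to microglia in tissue, so their RNA is a usual carry-over in sorted brain cells.

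Where such repressors act was not measured. The promoters below give the sequence just before the start of some markers. They are those of 1 neuron, 1 astrocyte and 1 oligodendrocyte lineage marker, picked by a small p in FAD DKO against FAD: Slc17a7 had the smallest of its class, and Gfap and Olig2 came next after Aqp4 and Mbp, whose promoters are not used here. Gad2 was added afterwards because it held a match to part of the REST site. Each run is the 250 bases before the RefSeq start of the gene, 5′ to 3′ on the gene's strand, in GRCm38.p6. Capitals mark matches on either strand to the GC box GGGCGG, which Sp1-family factors bind, or, in Gad2, to GGACAGCG, the right part of the REST site. The Slc17a7 promoter is at chr7:45163671-45163920 (+ strand), Gfap at chr11:102897201-102897450 (- strand), Olig2 at chr16:91225300-91225549 (+ strand) and Gad2 at chr2:22622077-22622326 (+ strand).
Slc17a7: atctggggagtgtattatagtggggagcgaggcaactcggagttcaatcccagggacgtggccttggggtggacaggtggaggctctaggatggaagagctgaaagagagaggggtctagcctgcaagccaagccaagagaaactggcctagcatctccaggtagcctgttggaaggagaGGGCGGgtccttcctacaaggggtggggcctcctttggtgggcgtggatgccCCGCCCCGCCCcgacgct
Gfap: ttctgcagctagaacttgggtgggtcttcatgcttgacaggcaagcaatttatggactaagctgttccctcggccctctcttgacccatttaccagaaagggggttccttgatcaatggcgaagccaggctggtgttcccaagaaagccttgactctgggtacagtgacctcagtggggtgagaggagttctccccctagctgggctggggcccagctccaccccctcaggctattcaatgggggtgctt
Olig2: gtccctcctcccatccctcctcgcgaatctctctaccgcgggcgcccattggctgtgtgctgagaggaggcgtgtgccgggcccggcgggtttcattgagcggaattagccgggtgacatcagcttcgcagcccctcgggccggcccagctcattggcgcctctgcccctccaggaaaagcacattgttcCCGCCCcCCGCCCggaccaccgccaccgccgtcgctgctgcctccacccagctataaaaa
Gad2: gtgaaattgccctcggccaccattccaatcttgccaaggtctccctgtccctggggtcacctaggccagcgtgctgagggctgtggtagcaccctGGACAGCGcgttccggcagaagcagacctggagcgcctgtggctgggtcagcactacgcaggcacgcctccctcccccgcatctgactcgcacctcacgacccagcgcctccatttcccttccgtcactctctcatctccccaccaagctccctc
Slc17a7 held 3 GC boxes, starting at -70, -18 and -13 from the start site, the last pair overlapping by 1 base. Olig2 held 2, at -60 and -53, and Gfap held none of the motifs searched. Gad2 held its REST part match at -155. RefSeq promoters were found for 23 of the 33 markers, 27 promoters in all, of which 13 (48.1%) held a GC box against 32.7% of all 32851 promoters. The right part of the REST site was in 1 of 27 (3.7%) against 0.992%, and the left part, TTCAGCACC, in 0 of 27 against 0.301%. The E-box CAGCTG was in 2 of 27 (7.41%) against 13%. These are exact matches of letters and not measured binding. Near matches, and sites outside the 250 bases, were not counted. In Gad2 the letters agcacc, which end the left part of the REST site, stand shortly before the marked match.

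The label of the cells was checked first. The 11 measured microglia identity genes, among them Cx3cr1, P2ry12 and Tmem119, had 9-array means between 9.40 and 12.07 on the log2 scale, and all 11 lay above 5.354, the median over all probe sets. Of the 33 markers, 11 (33.3%) lay at or above that median, against 52% of all genes. Their 9-array means ran from 3.86 (Pdgfra) to 7.55 (Slc1a3). A probe set's signal also depends on its probes. This position therefore places most of the markers, but not Slc1a3 or Pecam1 (6.39), among low signals and does not rank genes. In FAD DKO the array means of Hdac1 and Hdac2 were 7.56 ± 0.13 and 7.80 ± 0.164 (SD, n = 3), below 8.12 ± 0.086 and 8.48 ± 0.107 in FAD, and all 3 FAD DKO arrays lay below every other array for both genes. Neither difference from FAD passed over all genes (limma adjusted p = 0.376 and 0.159). Both FAD DKO means stayed above the median of 5.354, and how complete the deletion was in these cells was not tested. The mean of the identity genes was 11.02 to 11.03 per array in wild type, 10.90 to 10.99 in FAD and 10.90 to 10.98 in FAD DKO, and its part in the marker values was not tested. In FAD DKO against wild type, 3 of the 11 had an unadjusted p under 0.05, all lower (27.3%, against 8.14% of all genes). They were Cx3cr1 (-0.33, limma adjusted p = 0.133), P2ry12 (-0.18, adjusted p = 0.487) and Fcrls (-0.49, adjusted p = 0.565). Fcrls read 10.29 on the third FAD DKO array, against 11.18 and 11.11 on the others of that group. In sorted cells measured in bulk, fewer contaminating cells and less RNA per cell cannot be told apart, and nor can carried-over RNA and RNA made in the microglia.

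**Figure D1:**
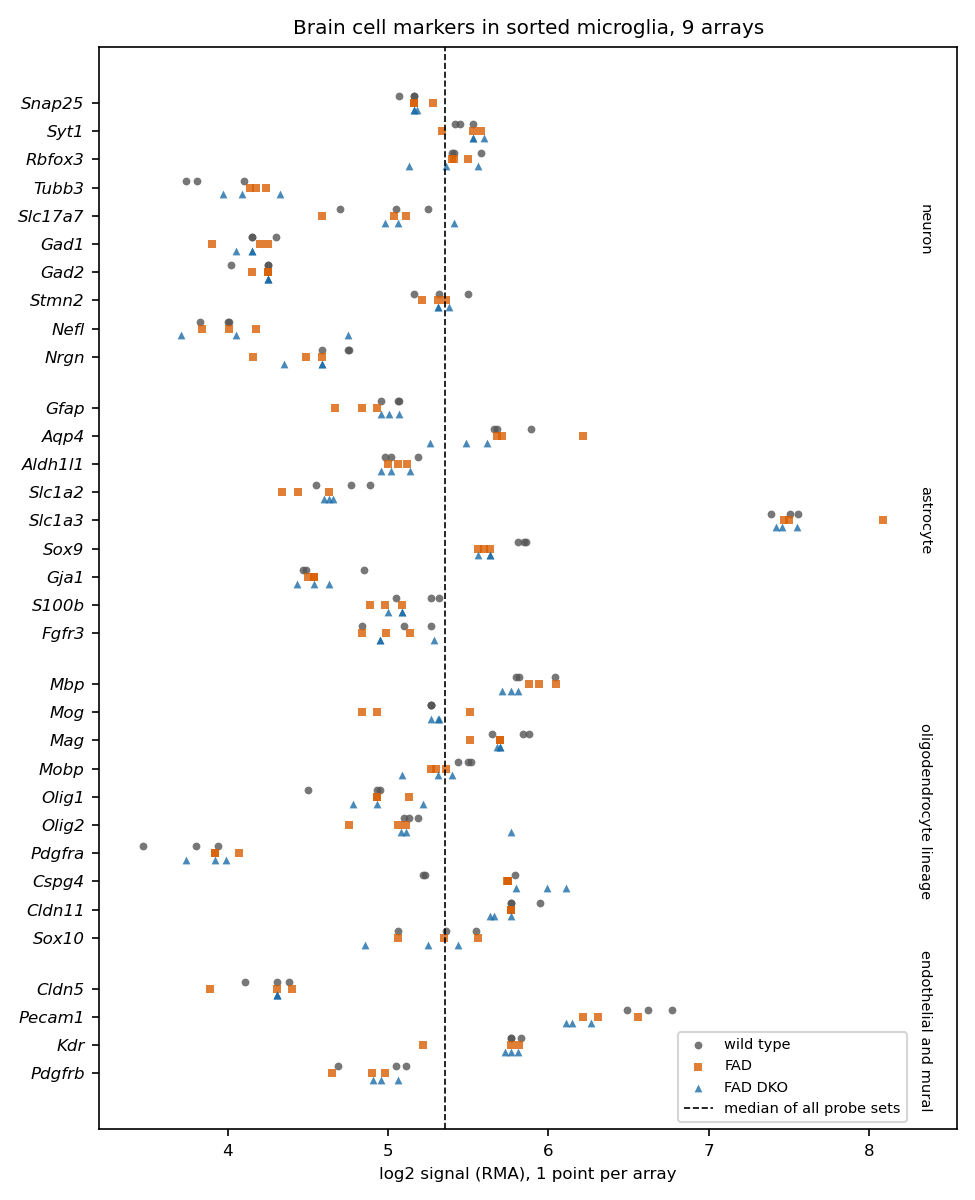
Log2 RMA signal (x axis) of the 33 markers (rows, grouped by cell class) on 9 arrays, with grey circles for wild type, orange squares for FAD and blue triangles for FAD DKO. The dashed line is the median of all probe sets, 5.354; 11 of the 33 markers average at or above it, and the symbols of the 3 genotypes lie close together in nearly every row.

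None of the 33 markers passed in any of the 3 comparisons at an adjusted p under 0.05 (limma, Benjamini-Hochberg over 22180 genes). The test called 9 genes in FAD against wild type (0.0406% of those tested), 5 in FAD DKO against FAD (0.0225%) and 31 in FAD DKO against wild type (0.14%), so few genes of any kind passed. The smallest adjusted p of a marker was 0.344 (Sox9) in FAD against wild type, 0.546 (Aqp4) in FAD DKO against FAD and 0.219 (Pecam1) in FAD DKO against wild type. Each pair of comparisons shares the arrays of 1 group, so their values below are set side by side and are not independent.

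The intervals bound how large a difference these signals could hold. For all 33 markers the 95% interval of the difference lay within 2-fold either way in each comparison, as it did for 98.3%, 98.4% and 98.3% of all genes. Within 1.5-fold lay the intervals of 32, 29 and 29 markers (97%, 87.9% and 87.9%), against 87.4%, 87.5% and 87.5% of all genes. The log2 differences themselves ran from -0.28 to 0.34 in FAD against wild type, from -0.41 to 0.34 in FAD DKO against FAD and from -0.45 to 0.56 in FAD DKO against wild type. No marker's estimate passed 1.5-fold, which 0.888%, 0.712% and 1.1% of all genes did.

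Without adjustment, 7 markers had a p under 0.05 in FAD against wild type (21.2%, against 8.43% of all genes), 3 in FAD DKO against FAD (9.09%, against 8.1%) and 4 in FAD DKO against wild type (12.1%, against 8.14%). The 7 were Tubb3, higher in FAD, and Nrgn, Gfap, Slc1a2, Sox9, S100b and Pecam1, lower in FAD. The 3 were Gfap, higher in FAD DKO, and Aqp4 and Mbp, lower. The 4 were Cspg4, higher in FAD DKO than in wild type, and Sox9, Mobp and Pecam1, lower. Counted by arrays that did not overlap, 1 marker lay higher (Tubb3) and 3 lower (Gfap, Sox9 and Mobp) in FAD than in wild type, 12.1% of the markers in all, against 6.37% higher and 5.46% lower among all genes. In FAD DKO against FAD, 2 lay higher (Gfap and Cspg4) and 2 lower (Aqp4 and Mbp), again 12.1%, against 5.38% and 6.5%. In FAD DKO against wild type, 1 lay higher (Cspg4) and 4 lower (Aqp4, Sox9, Mobp and Pecam1), 15.2%, against 5.77% and 6.15%. Either way, all genes stood apart in 11.8%, 11.9% and 11.9% of cases. The median difference over the markers was -0.07, 0.03 and -0.01 in the 3 comparisons, against -0.01, 0.01 and 0.00 over all genes. Differences above 0 were found for 11 (33.3%), 19 (57.6%) and 14 (42.4%) of the markers, against 47.9%, 53.2% and 51.3% of all genes.

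**Figure D2:**
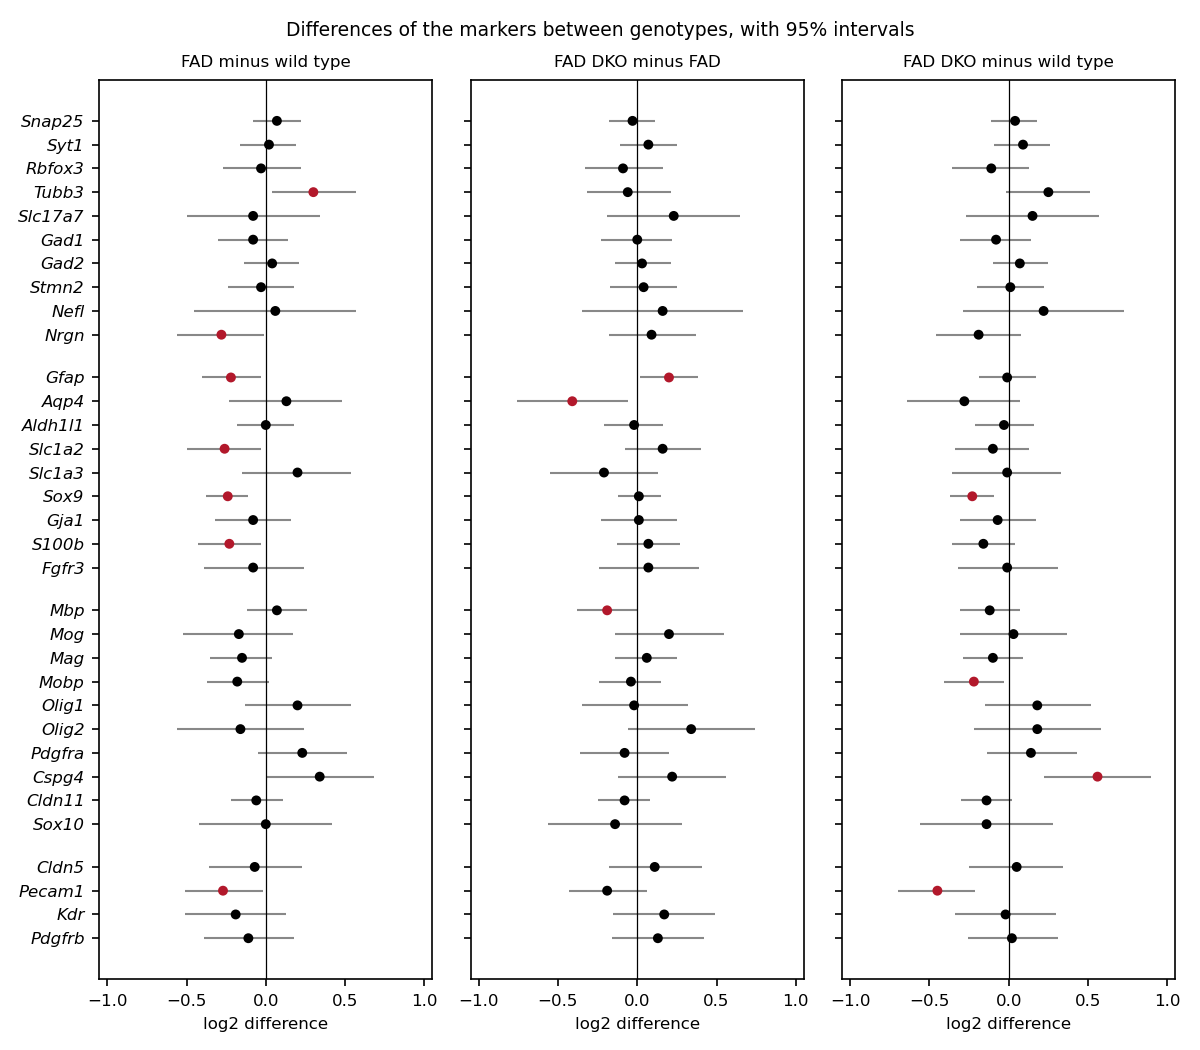
Log2 difference (x axis) with its 95% interval for each of the 33 markers in the 3 comparisons, in limma's fit of all 9 arrays. Red points have an unadjusted p under 0.05 (7, 3 and 4 markers); every interval lies between -1 and 1, that is, within 2-fold, and no marker passed after adjustment.

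The 10 neuron markers had a mean level per array of 4.70 to 4.77 in FAD, 4.67 to 4.86 in FAD DKO and 4.64 to 4.78 in wild type. The 3 ranges overlap, and the lowest and the highest values of FAD DKO enclose those of FAD. Median differences were -0.01 in FAD against wild type, 0.04 in FAD DKO against FAD and 0.05 in FAD DKO against wild type. Tubb3, the neuronal beta-tubulin, read 3.74, 4.10 and 3.81 on the wild type arrays, 4.24, 4.14 and 4.18 on the FAD arrays, and 4.33, 4.09 and 3.97 on the FAD DKO arrays. All FAD arrays lay above all wild type arrays (log2 difference 0.30, 95% interval 0.04 to 0.57, adjusted p = 0.557), while FAD DKO overlapped both. Nrgn, which encodes the calmodulin-binding postsynaptic protein neurogranin, read 4.59, 4.76 and 4.75 on the wild type arrays, 4.59, 4.49 and 4.16 on the FAD arrays, and 4.59, 4.35 and 4.59 on the FAD DKO arrays. The groups touch at 4.59, and the log2 difference of FAD from wild type was -0.28 (adjusted p = 0.588), and -0.16 without the third FAD array.

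Slc17a7, the vesicular transporter of excitatory synapses, read 4.70, 5.05 and 5.25 on the wild type arrays, 5.11, 4.59 and 5.04 on the FAD arrays, and 5.06, 5.41 and 4.98 on the FAD DKO arrays. The spread within each group was as wide as the difference between FAD DKO and FAD (0.23, SE 0.185, adjusted p = 0.748), which was 0.07 without the second FAD array. Syt1, the calcium sensor of synaptic vesicles, read 5.53, 5.42 and 5.45 on the wild type arrays, 5.34, 5.58 and 5.53 on the FAD arrays, and 5.60, 5.53 and 5.53 on the FAD DKO arrays (0.07 in FAD DKO against FAD, adjusted p = 0.822). Its groups overlap throughout. Nefl, a neurofilament subunit, read 4.01, 4.0 and 3.83 on the wild type arrays, 4.01, 4.18 and 3.84 on the FAD arrays, and 4.05, 4.75 and 3.71 on the FAD DKO arrays. The second FAD DKO array alone gave Nefl its positive difference against FAD (0.16, adjusted p = 0.869), which was -0.13 without that array.

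The other 5 neuron markers had differences between -0.11 (Rbfox3, FAD DKO against wild type) and 0.07, and adjusted p of 0.807 or more in all 3 comparisons. Among them, Gad2, a GABA-synthesising enzyme, read 4.25 on all 3 FAD DKO arrays, on 2 FAD arrays and on 2 wild type arrays to 2 decimals, with 4.15 and 4.02 on the others. Its promoter is the one with the partial REST match, and its difference between FAD DKO and FAD was 0.03 (95% interval -0.14 to 0.21, adjusted p = 0.923). Snap25, a SNARE protein of synaptic vesicle fusion, lay between 5.07 and 5.28 on all 9 arrays. Gad1, the second such enzyme, lay between 3.90 and 4.30, with a difference of 0.00 in FAD DKO against FAD.

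The 9 astrocyte markers were all below 0 in FAD DKO against wild type, by -0.28 to -0.01, with a median of -0.07, and 7 of 9 were below 0 in FAD against wild type, with a median of -0.08. In FAD DKO against FAD, 6 of 9 were above 0, with a median of 0.01. In FAD DKO against wild type, 51.3% of all genes were above 0. So were 7 of 20 genes of a wider astrocyte list, which ran from -0.47 to 0.45 with a median of -0.06. In FAD against wild type, 47.9% of all genes and 8 of those 20 were above 0. Mean levels per array of the 9 markers were 5.38 to 5.44 in wild type and 5.26 to 5.39 in both FAD and FAD DKO. The wild type range thus overlaps both at its lower end. Sox9, a transcription factor of astrocytes and their progenitors, read 5.86, 5.81 and 5.85 on the wild type arrays, 5.64, 5.60 and 5.56 on the FAD arrays, and 5.56, 5.64 and 5.64 on the FAD DKO arrays. All wild type arrays lay above all the others. The differences were -0.24 in FAD (95% interval -0.38 to -0.11, adjusted p = 0.344) and -0.23 in FAD DKO (-0.37 to -0.09, adjusted p = 0.285) against wild type, and 0.01 between FAD DKO and FAD.

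Gfap, the intermediate filament of astrocytes, read 4.96, 5.06 and 5.07 on the wild type arrays, 4.84, 4.93 and 4.67 on the FAD arrays, and 4.96, 5.07 and 5.01 on the FAD DKO arrays. FAD lay below both other groups without overlap, by -0.22 against wild type (adjusted p = 0.535), and FAD DKO stood 0.20 above FAD (adjusted p = 0.563), or 0.13 without the third FAD array. The range over 9 arrays was 0.40, with every value below the median signal. Aqp4, the water channel of astrocyte endfeet, read 5.68, 5.66 and 5.89 on the wild type arrays, 6.22, 5.71 and 5.68 on the FAD arrays, and 5.26, 5.62 and 5.49 on the FAD DKO arrays. FAD DKO lay below all other arrays, by -0.41 against FAD (95% interval -0.76 to -0.06, adjusted p = 0.546) and -0.28 against wild type (adjusted p = 0.694). Without the first FAD array the difference from FAD was -0.23 (adjusted p = 0.732), and without the first FAD DKO array that from wild type was -0.19.

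Slc1a3, the glutamate transporter GLAST, read 7.51, 7.56 and 7.39 on the wild type arrays, 8.09, 7.50 and 7.47 on the FAD arrays, and 7.42, 7.46 and 7.55 on the FAD DKO arrays. The first FAD array stood alone, and without it the difference of FAD from wild type went from 0.20 (adjusted p = 0.762) to -0.01. That array was also the highest for Aqp4, but not for Gfap or Gja1. Gja1, the gap junction protein connexin 43, read 4.85, 4.49 and 4.47 on the wild type arrays, 4.54, 4.54 and 4.50 on the FAD arrays, and 4.43, 4.54 and 4.63 on the FAD DKO arrays, and its groups overlap. The other 4 astrocyte markers were Slc1a2, the glutamate transporter GLT-1, S100b, a calcium-binding protein, Fgfr3, a growth factor receptor, and Aldh1l1, a folate enzyme. Their differences ran from -0.26 (Slc1a2, FAD against wild type) to 0.16 (Slc1a2, FAD DKO against FAD), and their groups overlapped in every comparison.

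**Figure D3:**
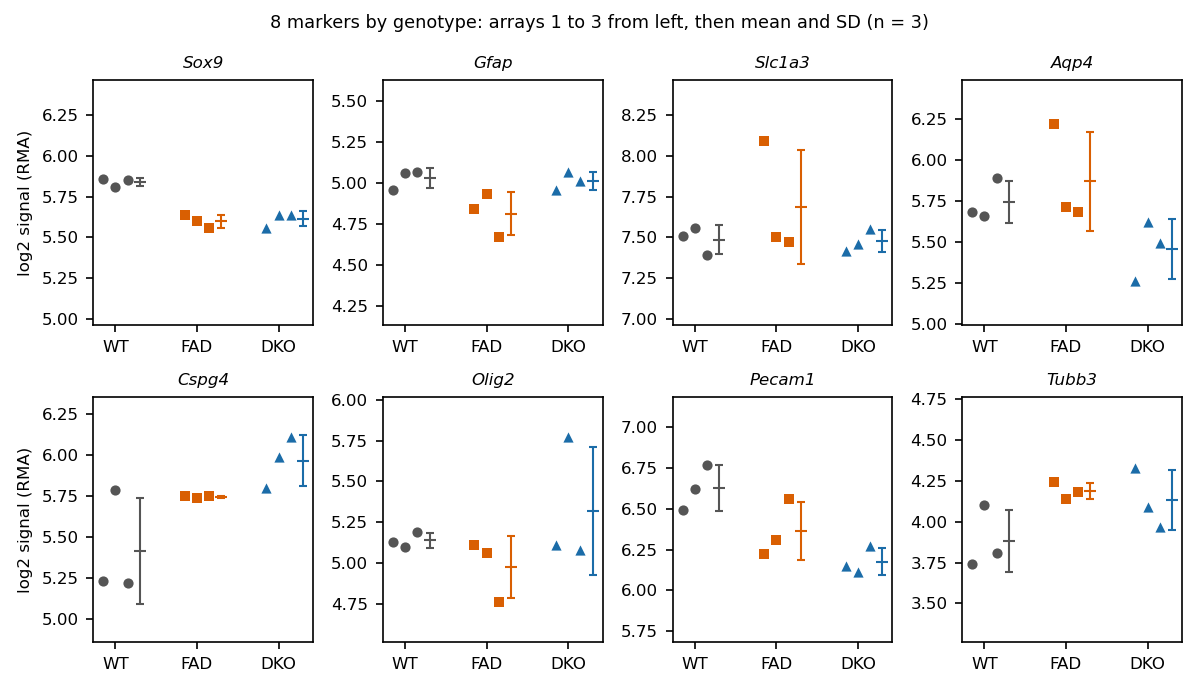
Log2 RMA signal (y axis, a range of 1.5 in each panel) of 8 markers on arrays 1 to 3 of each genotype from left, with the group mean and SD (n = 3). Sox9 shows all wild type arrays above the rest, Slc1a3 and Aqp4 show 1 high FAD array (8.09 and 6.22), and Olig2 shows 1 high FAD DKO array (5.77).

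The 10 oligodendrocyte lineage markers had median differences of -0.03 in each of the 3 comparisons, with 4, 4 and 5 of 10 above 0. Their mean levels per array were 5.20 to 5.36 in wild type, 5.24 to 5.33 in FAD and 5.23 to 5.43 in FAD DKO. Cspg4, the NG2 proteoglycan of oligodendrocyte precursors and pericytes, read 5.23, 5.79 and 5.22 on the wild type arrays, 5.75, 5.74 and 5.75 on the FAD arrays, and 5.80, 5.99 and 6.11 on the FAD DKO arrays. FAD DKO lay above all other arrays, and 1 wild type array lay at the level of FAD. Its difference of 0.56 in FAD DKO against wild type (95% interval 0.22 to 0.90, adjusted p = 0.309) was the largest of any marker, and was 0.74 without the second wild type array (adjusted p = 0.0881). Against FAD it was 0.22 (adjusted p = 0.711). Pdgfra, the receptor that marks the same precursors, read 3.80, 3.94 and 3.47 on the wild type arrays, 3.92, 3.92 and 4.07 on the FAD arrays, and 3.74, 3.92 and 3.99 on the FAD DKO arrays. It differed by 0.14 in FAD DKO against wild type (adjusted p = 0.818), with overlapping groups.

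Among the myelin genes, Mbp, which encodes myelin basic protein, read 5.80, 6.04 and 5.82 on the wild type arrays, 5.88, 5.94 and 6.05 on the FAD arrays, and 5.77, 5.81 and 5.71 on the FAD DKO arrays. FAD DKO lay below FAD without overlap (-0.19, 95% interval -0.38 to 0.00, adjusted p = 0.609) and overlapped wild type. Mobp, a protein of compact myelin, read 5.52, 5.50 and 5.44 on the wild type arrays, 5.27, 5.36 and 5.30 on the FAD arrays, and 5.31, 5.40 and 5.09 on the FAD DKO arrays. Wild type lay above both other groups, with differences of -0.18 in FAD (adjusted p = 0.637) and -0.22 in FAD DKO (adjusted p = 0.532), or -0.13 without the third FAD DKO array. Mog, Mag and Cldn11, a surface glycoprotein, an adhesion molecule and a tight junction protein of myelin, had differences between -0.17 and 0.20 and overlapping groups throughout.

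Among the transcription factors of the lineage, 1 array stood out. Olig2, needed to specify oligodendrocytes, read 5.13, 5.10 and 5.19 on the wild type arrays, 5.11, 5.06 and 4.76 on the FAD arrays, and 5.11, 5.77 and 5.08 on the FAD DKO arrays. Its difference of 0.34 in FAD DKO against FAD (95% interval -0.06 to 0.74, adjusted p = 0.643) was 0.12 without the second FAD DKO array. Olig1, its close relative, had its highest value, 5.22, on that array and a difference of -0.02 in FAD DKO against FAD. Sox10, which acts with both in the lineage, read 5.25, 5.44 and 4.86 in FAD DKO and 5.35, 5.56 and 5.06 in FAD, a difference of -0.14 (adjusted p = 0.858).

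The 4 endothelial and mural markers were all below 0 in FAD against wild type, with a median of -0.15, and 3 of 4 were above 0 in FAD DKO against FAD, with a median of 0.12. Mean levels per array were 5.33 to 5.51 in wild type, 5.20 to 5.28 in FAD and 5.26 to 5.34 in FAD DKO. FAD did not overlap wild type over these 4 genes, and FAD DKO overlapped both. A wider list of 32 endothelial and mural genes did overlap, at 4.86 to 4.95 in wild type and 4.85 to 4.91 in FAD. Of those 32, 12 were above 0 in FAD against wild type, as were 47.9% of all genes. Pecam1, the adhesion molecule CD31 of endothelium, which also occurs on blood leukocytes and platelets, read 6.49, 6.62 and 6.77 on the wild type arrays, 6.22, 6.31 and 6.56 on the FAD arrays, and 6.15, 6.11 and 6.27 on the FAD DKO arrays. The wild type arrays lay above all FAD DKO arrays and the FAD arrays overlapped both groups. The differences were -0.45 in FAD DKO (95% interval -0.70 to -0.21, adjusted p = 0.219) and -0.27 in FAD (adjusted p = 0.574) against wild type, and -0.19 in FAD DKO against FAD (adjusted p = 0.679), or -0.09 without the third FAD array.

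The other 3 vascular markers had differences between -0.02 and 0.05 in FAD DKO against wild type. Kdr, the main endothelial receptor for VEGF, read 5.83, 5.77 and 5.77 on the wild type arrays, 5.22, 5.82 and 5.77 on the FAD arrays, and 5.77, 5.73 and 5.81 on the FAD DKO arrays. Only the first FAD array stood apart, and the difference of FAD from wild type, -0.19, was 0.00 without it. Cldn5, the tight junction claudin of brain endothelium, read 4.31, 4.11 and 4.38 on the wild type arrays, 4.40, 4.31 and 3.89 on the FAD arrays, and 4.31 on each FAD DKO array. Its difference was 0.05 in FAD DKO against wild type (adjusted p = 0.956). Pdgfrb, the pericyte receptor, ran from 4.65 to 5.11 over all arrays and differed by 0.02 in that comparison (adjusted p = 0.976).

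**Figure D4:**
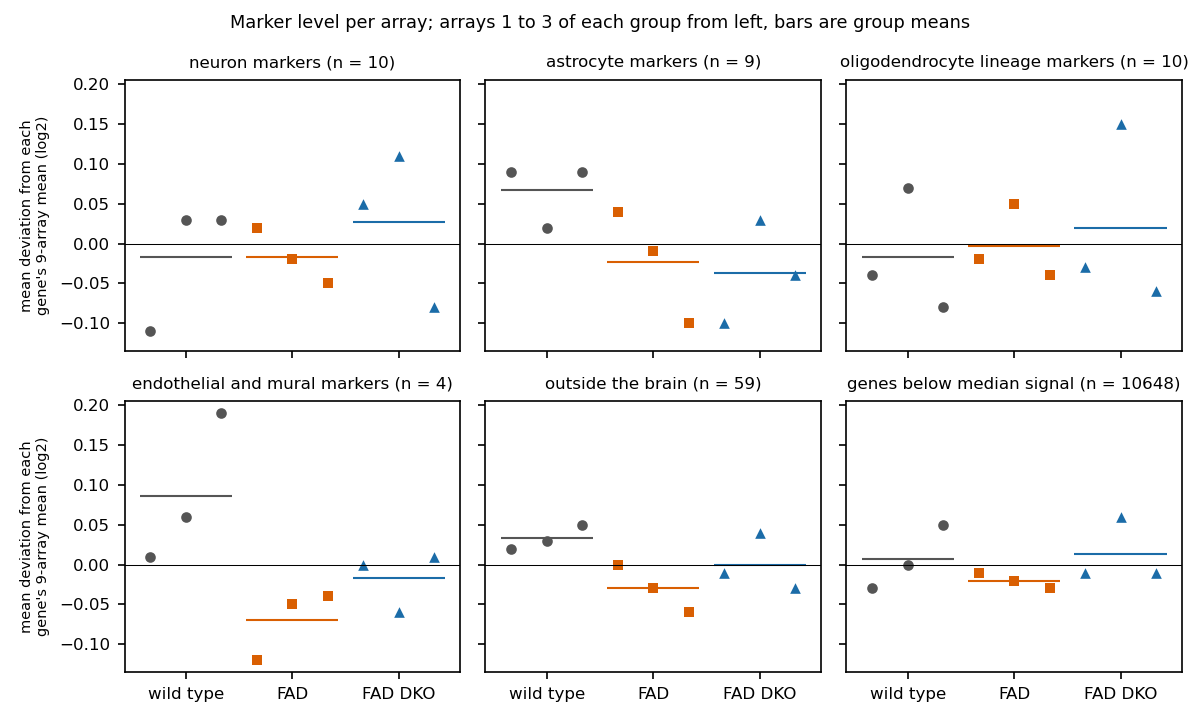
Mean deviation of a list's genes from each gene's 9-array mean (y axis, log2) for arrays 1 to 3 of each genotype from left, with bars at the group means. The 4 marker classes move by no more than 0.19. The second FAD DKO array lies high for neuron (0.11) and oligodendrocyte lineage markers (0.15) and for genes below the median signal (0.06). It lies at 0.03 for astrocyte markers and at -0.06 for endothelial and mural markers. For lineages outside the brain it lies at 0.04, below the third wild type array (0.05).

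Individual arrays carried much of the spread: of the 24 differences followed through the alternatives, 15 moved by over 1.5 times or changed sign when 1 array was left out. The second FAD DKO array was the highest of its group for 14 of 33 markers (42.4%), for 26 of 59 genes of lineages outside the brain (44.1%) and for 4767 of 10648 genes below the median signal (44.8%). Its mean deviation was 0.08 for the markers, 0.04 for the lineages outside the brain and 0.06 for the low-signal genes. The third wild type array was also the highest of its group for 14 markers (42.4%), and for 41.1% of the low-signal genes, with a mean deviation of 0.05 for these. The second FAD array was the highest of its group for 13 markers (39.4%), against 29.4% of the low-signal genes. Over all genes the shares were 37.3% for the second FAD DKO array, 32.3% for the third wild type array and 29.5% for the second FAD array. The second FAD DKO array took the lowest array weight, 0.589, when limma weighted arrays by their spread. Whether the quality of that array accounts for the Olig2, Olig1 and Nefl values was not tested.

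Wider sets of genes put the markers beside others measured on the same arrays. Further markers of the same brain cells, with ependyma and choroid plexus, were measured for 113 of 118 genes, and genes of liver, muscle and heart, skin, gut and pancreas, lung and kidney, and germ line for 59 of 63. The 59, whose tissues are not part of the brain, had median differences of -0.05, 0.04 and -0.03 in the 3 comparisons, with 33.9%, 66.1% and 42.4% above 0. The 33 markers had -0.07, 0.03 and -0.01, with 33.3%, 57.6% and 42.4%. No gene of the 59 was called, and 4, 2 and 4 had an unadjusted p under 0.05 (6.78%, 3.39% and 6.78%). The smallest p among them in FAD against wild type belonged to Lgals4, a gut galectin, at -0.37 (adjusted p = 0.23). In FAD DKO against FAD it was again that of Lgals4, at 0.29 (adjusted p = 0.383). In FAD DKO against wild type it was that of Myl2, a muscle and heart gene, at 0.26 (adjusted p = 0.414). The gut and pancreas genes, like the 4 vascular markers, had array means that did not overlap between wild type (4.56 to 4.71) and FAD (4.43 to 4.51). Nor did those of the lung and kidney genes (4.74 to 4.79 in wild type and 4.68 to 4.73 in FAD).

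Of the 113 wider markers, 1 was called: Flt1, a VEGF receptor of endothelium that monocytes and macrophages also express. Flt1 read 4.59, 4.72 and 4.79 on the wild type arrays, 5.60, 5.76 and 5.30 on the FAD arrays, and 6.05, 5.85 and 5.99 on the FAD DKO arrays. The 3 groups did not overlap, and Flt1 was higher in FAD DKO than in wild type by 1.26 (SE 0.12, adjusted p = 0.00872). It stood at 0.85 in FAD against wild type (adjusted p = 0.0647) and 0.41 in FAD DKO against FAD (adjusted p = 0.407). Kdr, Cldn5 and Pdgfrb, given above, had differences of -0.02, 0.05 and 0.02 in FAD DKO against wild type, and Pecam1 -0.45. Over all 113 the medians were -0.02, 0.03 and 0.01, with 41.6%, 62.8% and 54% above 0, against 47.9%, 53.2% and 51.3% of all genes. An unadjusted p under 0.05 was found for 9, 14 and 11 (7.96%, 12.4% and 9.73%), against 8.43%, 8.1% and 8.14% of all genes. Of the 14 in FAD DKO against FAD, 10 were higher and 4 lower. In that comparison, 13 of 18 wider oligodendrocyte lineage genes were above 0 (72.2%). In FAD DKO against FAD the smallest p among the 113 was that of Elavl4, a neuronal RNA-binding protein, which was lower (-0.59, adjusted p = 0.212). Most of the wider neuron list went the other way, with 23 of 34 measured genes above 0 (67.6%, against 53.2% of all genes). Of its 6 genes with an unadjusted p under 0.05 (17.6%, against 8.1%), 5 were higher and 1, Elavl4, was lower. No gene of that list was called, and the cause was not tested.

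**Figure D5:**
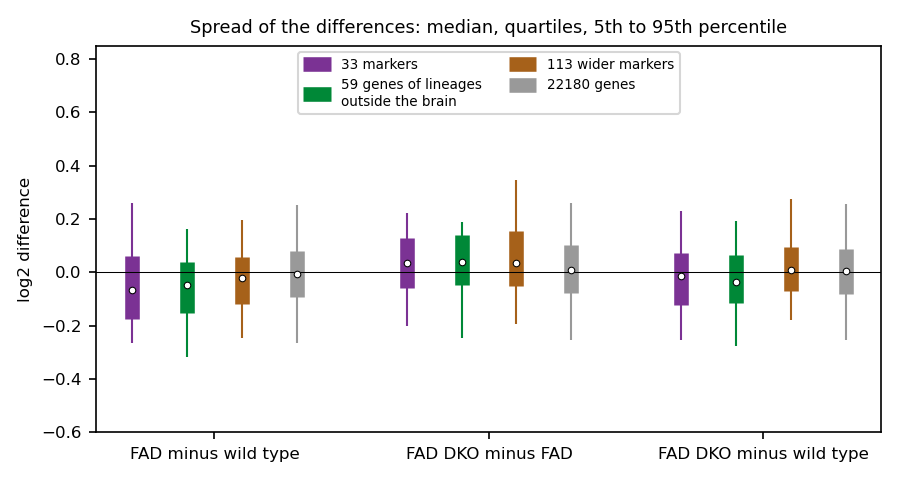
Log2 differences (y axis) of the 33 markers, the 59 genes of lineages outside the brain, the 113 wider markers and all 22180 genes in the 3 comparisons; dots are medians, boxes the quartiles and lines the 5th to 95th percentile. The medians of the markers are -0.07, 0.03 and -0.01, beside -0.05, 0.04 and -0.03 for the lineages outside the brain, and the boxes of all sets cross 0.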

How the data were processed

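RNA of sorted microglia was amplified, labelled with biotin and hybridised, per the labels. For each probe set the authors deposited a log2 signal computed with RMA, per the submitters' processing notes. RMA corrects the background, brings the arrays to a like distribution and combines the probes of a set. Which version was run is not stated in the labels. No detection call entered the work. Close to the floor, such values compress ratios, so the intervals bound a difference in array signal and not in RNA. Array medians ran from 5.346 to 5.398, and the number of arrays limits the precision.

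Of 41345 probe sets, 23521 had 1 gene symbol in the platform table, 1814 had several and 16010 were not listed. The brightest probe set stood for a gene. Differences were fitted with limma 3.58.1 (lmFit, eBayes) in R 4.3.3, in 1 fit of 9 arrays with a mean per group, 6 residual degrees of freedom (8.98 after moderation), and two-sided p-values adjusted by Benjamini-Hochberg over 22180 genes. The fit was tested on simulated data. No list was tested as a set. Figures used Python 3.11.15 and matplotlib 3.10.9. Promoters came from RefSeq.

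The members and lists were chosen with earlier results of these data known. Values in every sample are given for the 2 markers per class with the smallest p in each comparison and for those with the highest and lowest mean level. Other markers are given by ranges and examples, which were chosen after their values were seen. Of the wider lists, the called gene and the gene with the smallest p in each comparison were named. Alternatives were a low-signal filter, renewed quantile normalization, a trended robust variance, 2 groups only, array weights, the mean of probe sets, every probe set, a replicate block, and leaving out each array.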

Additional observations from a re-analysis of the deposited data

How the results depend on the processing

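No marker was called under any of the 8 alternatives or the 9 fits without 1 array (lowest adjusted p of a marker 0.0872 with the low-signal filter). Of 153 values of counts under alternatives, 115 stayed within 1.5 times the main value and 38 moved. The 115 include every count of called markers, which was 0 in each fit. The 38 are all counts of called genes or of markers with an unadjusted p under 0.05. Of 204 class medians, 194 moved by less than the spread between replicates. Counts over all genes, in FAD against wild type, FAD DKO against FAD and FAD DKO against wild type, were 9, 5 and 31, and became 33, 11 and 117 with the low-signal filter, 43, 12 and 124 with the trended robust variance, and 5, 0 and 13 with only the 2 groups compared (for FAD DKO against FAD, 1797 genes had an unadjusted p under 0.05 in the fit of all 9 arrays). Array weights gave 22 in FAD against wild type, and 82 in FAD DKO against wild type, where every probe set gave 14. Quantile normalization gave 3 in FAD DKO against FAD. Without 1 array they ranged from 8 to 12, from 0 to 5 (0 without FAD replicate 2 or FAD DKO replicate 3) and from 2 to 28 (2 without wild type replicate 2 or FAD DKO replicate 3).

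Markers with an unadjusted p under 0.05 numbered 7, 3 and 4. The low-signal filter, which kept 11 markers, gave 3 in FAD against wild type, and the trended robust variance gave 1 in FAD DKO against FAD. Without 1 array they ranged from 2 (without FAD replicate 3) to 8, from 1 to 4 and from 3 to 5. With that filter the astrocyte medians were 0.125, -0.210 and -0.230 over 3 genes, and the endothelial and mural medians -0.228, -0.009 and -0.237 over 2. Without 1 array the astrocyte median in FAD against wild type ranged from -0.188 to -0.061, and the oligodendrocyte lineage median in FAD DKO against FAD from -0.106 to 0.054. Of the 397 values for the 24 differences chosen by the rule for named markers, 4 changed sign. Over all 33 markers, 37 of 99 differences changed sign at 2 decimals in at least 1 fit without an array, in 52 values. Among the 4, without wild type replicate 2, Cldn5 was -0.034 in FAD DKO against wild type (range over arrays left out -0.034 to 0.102). Without FAD replicate 1, Kdr was 0.002 in FAD against wild type (-0.297 to 0.002) and -0.023 in FAD DKO against FAD (-0.023 to 0.276), and Syt1 was -0.001 in the latter (-0.001 to 0.119). The causes were not tested.

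Whether equal replicate numbers paired the arrays was looked at after each gene's group mean was subtracted from its values. For same-numbered arrays of different groups, the correlations of these deviations ran from -0.11 to 0.122, and 1 of 9 was over 0.1. For differently numbered arrays they ran from -0.189 to 0.129, so equal numbers gave no sign of pairing. With the number as a replicate block, 8, 2 and 11 genes and 0 markers were called.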

Other observations

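Exactly repeated values were common among the markers. A value that recurred on 2 or more of the 9 arrays was found for 22 of the 33 markers (66.7%) and for 60.1% of all genes, and one that recurred on 5 or more for 4 markers (12.1%) and for 7.14% of all genes. Mog, a surface glycoprotein of myelin, read 5.27 on all 3 wild type arrays, Cldn11, a claudin of myelin, read 5.77 on all 3 FAD arrays, and Cldn5, a claudin of brain endothelium, read 4.31 on all 3 FAD DKO arrays. The median SD within a group was 0.141 for the markers and 0.132 for all genes, and the median range over the 9 arrays was 0.461 and 0.452. For such probe sets the SD of a single group can be near 0, and the spread that limma uses is pooled over the 3 groups.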
